A study of Mus musculus with 8 samples.

Results

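Mural and perivascular cells of the embryonic mouse kidney were described here in 4 mice. The members were selected on their transcripts: a cell of a tagged mouse had to hold at least 5 unique molecular identifiers (UMIs, each standing for 1 captured transcript) of Rgs5, Notch3 and Pdgfrb together, fewer than 25 of the collagen and proteoglycan genes Col1a1, Col3a1 and Dcn, and fewer than 6 of the endothelial genes Pecam1, Cdh5, Kdr, Flt1 and Emcn. This rule kept 313 of 6495 tagged cells. It chose the cells by the values of these 11 genes, so their levels describe the selection and were not tested.

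The cells came from male kidneys at E17.5, as the labels give the stage, and the methods of the study name a later embryonic day. Mice named ko carried the Trim28delta/delta genotype, in which a floxed Trim28 gene is recombined by the Six2-cre transgene, and mice named wt carried the Trim28f/f genotype, with the floxed gene left whole. Six2 is active in nephron progenitors, so the recombination was directed to the nephron lineage and not to the stroma lineage that gives rise to mural cells. Cells of the 4 mice were marked with lipid-anchored tags, pooled, and sequenced with a 3′ droplet assay, and the genotype of each mouse was read from the name of its tag.

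Mural cells wrap the outside of vessels. Pericytes sit on capillaries, smooth muscle cells encircle arteries and arterioles, mesangial cells hold the capillary loops of the glomerulus, and renin cells, which are modified smooth muscle cells of the afferent arteriole, release the enzyme that starts angiotensin production. Endothelial PDGF-B attracts these cells through PDGFRB, endothelial Notch ligands act on NOTCH3, and endothelial nitric oxide relaxes them through the soluble guanylate cyclase made of GUCY1A1 and GUCY1B1. In the fetal kidney renin is made along much of the arterial tree, and its expression narrows towards the glomerulus as vessels mature.

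Ren1, Acta2 and Myl9 were among the 10 leading genes of the renin and contractile cells described below, and the 250 bases before the start of each gene are shown for that reason. The sequences are from RefSeq on GRCm38.p6, at chr1:133350424-133350673 on the plus strand, chr19:34255374-34255623 on the minus strand and chr2:156775214-156775463 on the plus strand. Capitals mark TATAAA in Ren1, TGGGAA, the core that RBPJ of the Notch pathway can bind, in Acta2, and a CArG box, the element of serum response factor, in Myl9.
Ren1: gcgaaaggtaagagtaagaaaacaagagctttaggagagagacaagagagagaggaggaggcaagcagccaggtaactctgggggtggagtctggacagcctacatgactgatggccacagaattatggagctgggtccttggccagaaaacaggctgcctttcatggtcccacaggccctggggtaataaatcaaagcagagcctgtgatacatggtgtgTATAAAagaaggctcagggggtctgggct
Acta2: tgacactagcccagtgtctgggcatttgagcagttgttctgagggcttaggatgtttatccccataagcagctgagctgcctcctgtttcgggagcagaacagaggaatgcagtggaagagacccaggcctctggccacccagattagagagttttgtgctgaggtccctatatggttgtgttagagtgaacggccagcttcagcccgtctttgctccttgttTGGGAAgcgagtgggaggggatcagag
Myl9: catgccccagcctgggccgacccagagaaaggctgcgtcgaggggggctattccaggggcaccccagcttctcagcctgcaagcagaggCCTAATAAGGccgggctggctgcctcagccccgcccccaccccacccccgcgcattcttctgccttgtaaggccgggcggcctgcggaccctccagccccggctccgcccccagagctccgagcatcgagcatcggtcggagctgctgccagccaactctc

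Counted back from the start, the marked letters began at base 29 in Ren1, base 27 in Acta2 and base 161 in Myl9. Both strands were searched for these motifs and for TGACGTCA, the cAMP response element, with no mismatch allowed, and each window shown held 1 match, so that no matches overlapped there. Among 27025 windows of this length, 13.0% held TATAAA. The core of the Notch factor, TGGGAA, was held by 21.5%. A CArG box was held by 1.40%, and the cAMP response element by 1.62%. Of the 15 contractile smooth muscle genes with a window, Myl9 alone held a CArG box without mismatch, and 3 held the Notch core (Acta2, Smtn and Tpm1). The Acta2 window also held ccctatatgg and ccttgtttgg, each 1 letter off the CArG pattern, and its marked TGGGAA begins in the second. Of 11 pericyte genes with a window 3 held that core and 0 a CArG box, and of 9 renin lineage genes the counts were also 3 and 0. A match of letters is a description and shows no binding.

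The targeted gene came first among the measurements. In mural cells Trim28 stood at 105 and 109 CPM (counts per 1000000 UMIs) in ko mice 1 and 2 and at 104 and 129 CPM in wt mice 3 and 4. The ko mice were thus at the level of wt mouse 3. Scaled between mice with the TMM method of edgeR, Trim28 differed by -0.16 on the log2 scale (SE 0.25, ko minus wt, edgeR adjusted p = 0.997). In endothelial cells, which also lie outside the nephron lineage, Trim28 was at 84.9 and 88.9 CPM in the ko mice and at 82.1 and 98.6 CPM in the wt mice. In all tagged cells that were not mural it was at 45.7 and 49.4 CPM in the ko mice and at 103 and 127 CPM in the wt mice, so the genotypes did not overlap there. Counts at the 3′ end, which the recombined gene keeps, do not check the deletion itself.

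The mice contributed 33 and 33 mural cells with 588598 and 762677 UMIs in ko mice 1 and 2, and 167 and 80 cells with 2878626 and 1322234 UMIs in wt mice 3 and 4. The median mural cell of a mouse held between 12831 and 14095 UMIs. The largest cell of ko mouse 2 held 134469 UMIs, or 17.6% of that mouse's sum, and the largest cell of the other mice between 4.05% and 6.13%. The median share of mitochondrial UMIs was 3.75% and 3.44% in the ko mice and 2.82% and 2.93% in the wt mice. Of the 313 members, 63 had only 5 or 6 UMIs of the 3 mural genes, and 58 further cells missed the rule with 4. The rule left out 107 cells with mural transcripts for their collagens and 24 for their endothelial transcripts, 6 of them for both.

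The rule genes were high by construction. Rgs5, a regulator of G protein signalling that marks pericytes, stood at 651 CPM in mural cells and at 14.1 CPM in all other tagged cells. Pdgfrb, the PDGF receptor of mural cells, stood at 283 and 8.99 CPM, and Notch3, the Notch receptor of vascular smooth muscle, at 101 and 13.7 CPM. Gucy1a1, the marker outside the rule, stood at 347 CPM in mural cells, 427 CPM in the collagen-rich stroma cells and 4.48 CPM in endothelial cells. It therefore separated mural cells from endothelium and not from stroma. The collagen-rich stroma cells meant here are the 144 tagged cells with at least 25 collagen UMIs and too few mural and endothelial ones, and the endothelial cells are the 570 cells selected in the same way on the endothelial genes. Vtn and Higd1b, used as pericyte markers in other organs, were detected in 1 and 36 of the 313 cells.

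Outside the rule, genes of renin cells, pericytes and mesangial cells were among the 20 with the highest ratio of mural to other cells (10 CPM added to both). Ren1 (ENSMUSG00000070645), which encodes renin, led over the cells of all mice together with 2802 CPM in mural cells and 42.4 CPM in other cells. Its level ran from 367 CPM in wt mouse 4, where Ndufa4l2 stood higher at 411 CPM, to 7195 CPM in ko mouse 1, so that it did not lead in every mouse. Akr1b7, an aldo-keto reductase made by renin cells, followed at 205 and 2.85 CPM. Abcc9 and Kcnj8 encode the subunits of the ATP-sensitive potassium channel of pericytes and stood at 185 and 6.43 CPM and at 165 and 5.90 CPM. Ebf1, a transcription factor of pericytes and stroma, stood at 511 and 21.5 CPM. Hopx, at 235 and 3.94 CPM, is a homeodomain protein found in mesangial cells, and Reln, at 92.2 and 3.32 CPM, encodes the secreted protein reelin. Ndufa4l2 and Cox4i2, variant subunits of the respiratory chain, stood at 611 and 17.4 CPM and at 200 and 12.5 CPM. The other genes of the 20 were Gm13889, Serpini1, Dkk2, Gucy1a1, Cald1, Acta2, Mgp, Cd248, Lgals1, Vip and Mef2c. These levels share the contrast of the rule and carry no test.

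Acta2, Tagln, Myh11 and Myl9, genes of contraction, were lower in mural cells than in collagen-rich stroma cells. Acta2, smooth muscle actin, stood at 777 CPM in mural cells, 2302 CPM in collagen-rich stroma cells and 14.2 CPM in endothelial cells. Tagln, which encodes transgelin, stood at 423, 1342 and 24.5 CPM in the same order, and Myh11, the smooth muscle myosin, at 79.97, 269 and 1.79 CPM. Myl9, a myosin light chain, stood at 381, 991 and 12.04 CPM. Cells with many UMIs of these genes thus lay on both sides of the collagen limit.

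Mural cells were split into 9 subclusters with the 11 rule genes left out of the variable genes, and the subclusters describe how members differ. Subcluster 2 held 47 cells and was smooth muscle-like, with Tagln, Myh11 and Acta2 among its leading genes and with Ren1 at 22760 CPM against 755 CPM in the other mural cells, Tagln at 3300 against 128 CPM, Myh11 at 745 against 11.7 CPM and Acta2 at 4738 against 370 CPM. Its Rgs5 level of 1891 CPM was also the highest of the 9. Eln, elastin, stood there at 536 against 30.0 CPM. Ren1, Acta2, Tagln and Myh11 therefore peaked in the same subcluster, while Myl9 was higher in subcluster 3, at 2316 CPM against 1819 CPM in subcluster 2.

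Subcluster 1, the largest with 76 cells, was led by the haemoglobin genes Hbb-bs and Hba-a1 together with Vip and Dkk2. Apoe, an apolipoprotein that macrophages make, at 329 against 83.4 CPM, and Fcer1g, an Fc receptor chain of myeloid cells, at 76.4 against 2.63 CPM, were also among its 10 leading genes. At a clustering resolution of 1.0 a subcluster of 23 cells was led by Apoe, Fcer1g, C1qb, Pf4 and C1qa, with the complement gene C1qb at 224 against 1.13 CPM. It held 2 and 6 cells of the ko mice and 13 and 2 of the wt mice. Over all mural cells, however, immune markers summed to 400.0 CPM in ko mouse 2 and to between 18.2 and 22.8 CPM in the other mice. Fcer1g was found in only 9.21% of the cells of subcluster 1. In the split used here, Vip, which encodes a vasodilator peptide, stood in subcluster 1 at 249.5 against 40.3 CPM, and Dkk2, a Wnt regulator, at 567 against 167 CPM. Its Ren1 level of 3094 CPM was second to that of subcluster 2. Subcluster 3 held 11 cells, led by Adamts5, Myl9, Isg15, Anxa1 and Mfge8, and had Acta2 at 2959 CPM with no Myh11 UMI. None of its cells came from wt mouse 3.

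Subclusters 4 and 5 carried genes of the kidney stroma. The 28 cells of subcluster 4 had Alcam, Mest, Mfap4 and Col1a1 among their leading genes, and Foxd1, the transcription factor of stroma progenitors, reached 112 CPM there. In the 22 cells of subcluster 5, led by G0s2, Col6a1, Col14a1, Col6a2 and Plac8, Gucy1a1 reached 790 CPM. Subcluster 8, with 45 cells led by Lsp1, Wnt4, the histone genes Hist1h2ae and Hist1h2ap, and Tcf21, had Foxd1 at 87.4 CPM, and genes of early nephron structures were among its 10 leading genes as well. Wnt4, a signal that starts nephron formation, stood there at 278 against 46.0 CPM, and Lhx1, a transcription factor of early nephrons, at 164 against 22.3 CPM. At a resolution of 1.0 a subcluster of 19 cells, 3 and 1 of the ko mice and 10 and 5 of the wt mice, was led by Wnt4, Lhx1, Lsp1, Cryab and Wt1. In all subclusters but 4 and 8 Foxd1 lay at or below 14.9 CPM. The 59 cells of subcluster 6 were led by genes of cell division, Prc1, Ube2c, Cenpf, Top2a and Hist1h1b.

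The leading genes of subclusters 7 and 9 were epithelial, and subcluster 9 went against the label. Subclusters 4 and 8, with Foxd1 and, in the latter, genes of early nephrons, held at most 3 Notch3 UMIs in any cell. The same was true of subclusters 3 and 5. Subcluster 5 had collagen genes among its leading genes and the stroma gene Tcf21 at 553 CPM, against 313 CPM in subcluster 8. Subclusters 4, 5 and 8 bear the label less clearly and were kept in the mural counts. The 9 cells of subcluster 7 had Ttc36, Sult1d1, Kap and Fxyd2 among their leading genes, with Lrp2, a marker of the proximal tubule, at 698 against 36.1 CPM in the other mural cells, and their median was 30280 UMIs. The 16 cells of subcluster 9 were led by Aqp2, Fxyd4, Wfdc2, S100g and Krt18, genes of the collecting duct and other epithelia, at a median of 50375.5 UMIs. Epcam reached 949 CPM in subcluster 9, while Pdgfrb stood at 10.6 CPM, Gucy1a1 at 6.38 CPM, Rgs5 at 47.8 CPM and Notch3 at 81.8 CPM. Subcluster 7 held mural transcripts beside the tubule ones, with Rgs5 at 465 CPM, Pdgfrb at 164 CPM, Gucy1a1 at 152 CPM and Acta2 at 692 CPM, and the Scrublet doublet caller marked 8 of its 9 cells, against 3 of the 16 of subcluster 9. Subcluster 7 held 1 and 2 cells of the ko mice and 6 and 0 of the wt mice, and subcluster 9 held 2 and 6 cells of the ko mice and 6 and 2 of the wt mice. Together they held 14.7% and 58.5% of the mural UMIs of ko mice 1 and 2 and 22.35% and 7.69% of those of wt mice 3 and 4. Without them ko mouse 2 kept 25 cells and 316710 UMIs. Scrublet marked 26 of the 313 members, or 8.31%, and 5.88% of all tagged cells.

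**Figure D1:**
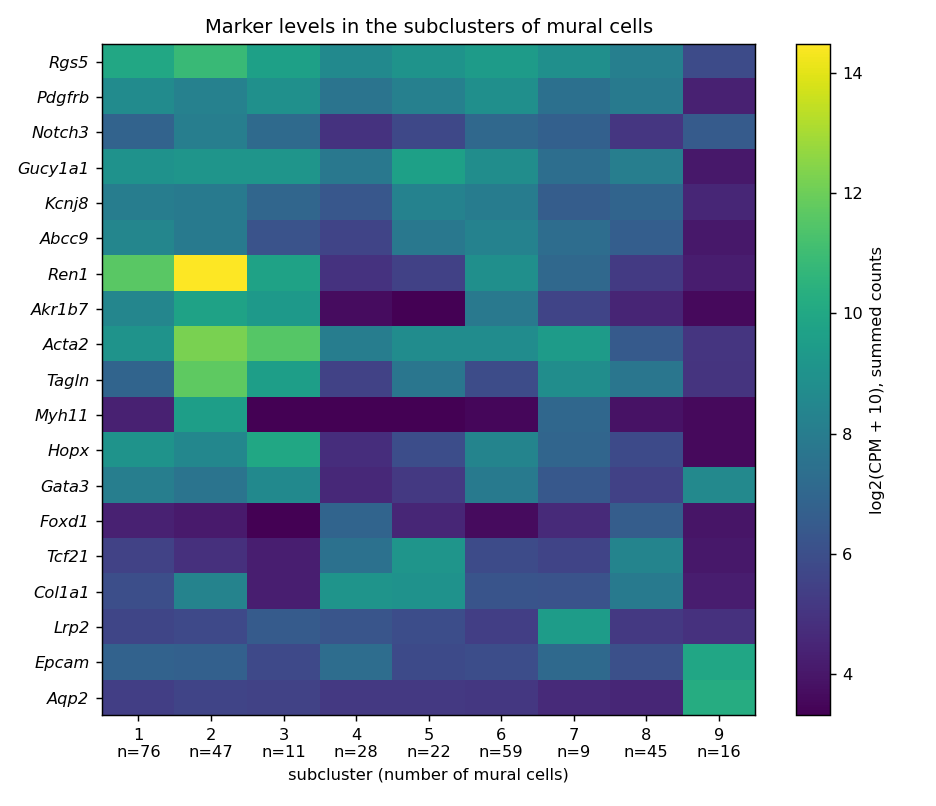
Level of 19 marker genes (rows) in the 9 subclusters of mural cells (columns, with the number of cells), as log2(CPM + 10) of the summed counts. Ren1, Acta2, Tagln and Myh11 peak in subcluster 2, Foxd1 in subclusters 4 and 8, Lrp2 in subcluster 7, and Epcam and Aqp2 in subcluster 9.

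The share of a mouse's mural cells in a subcluster did not overlap between genotypes in 3 of 9 subclusters, in 4 of 5 at a resolution of 0.3 and in 2 of 12 at 1.0. The cells of subcluster 6, led by genes of cell division, made up 18.2% and 6.06% of mural cells in the ko mice and 20.4% and 21.3% in the wt mice. Dividing cells were not confined to it, as many cells of subcluster 8 also held Top2a and Mki67 UMIs (44 and 37 in the richest). Subcluster 9 made up 6.06% and 18.2% in the ko mice and 3.59% and 2.5% in the wt mice. Subcluster 8 made up 18.2% in both ko mice and 11.98% and 16.3% in the wt mice. Each had p = 0.333 in a two-sided exact permutation test, the smallest value that 2 against 2 mice can give. The subcluster of renin and contractile genes overlapped, at 15.2% and 18.2% in the ko mice and 17.96% and 7.5% in the wt mice.

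Renin transcripts were concentrated in few cells. Of the 313 mural cells 162 held a Ren1 UMI and 61 held at least 10, and the richest cell carried 2577 of the 15558 Ren1 UMIs. Cells with at least 10 Ren1 UMIs made up 21.2% (95% exact binomial interval 8.98 to 38.9) and 27.3% (13.3 to 45.5) of mural cells in the ko mice. In the wt mice they made up 22.2% (16.1 to 29.2) and 10% (4.42 to 18.8), so the genotypes overlapped. The intervals cover counting error alone. Free RNA, read from droplets with 10 to 100 UMIs, held Ren1 at 200.4 CPM, and endothelial cells, which should lack it, at 19.3 CPM. A Ren1 UMI was found in 51.8% of mural and 27.5% of endothelial cells, and in 39.0% and 13.7% of them after thinning each cell to 6800 UMIs.

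Contractile transcripts accompanied renin in 35 of those 61 cells, as 10 or more UMIs of Acta2, Tagln and Myh11 together. The other 26 had renin without them, 21 of these in wt mouse 3. Another 61 cells had contractile transcripts without renin, and 191 had neither. Contractile cells made up 51.5% and 36.4% of mural cells in the ko mice and 26.3% and 28.8% in the wt mice. The ko shares lay above both wt shares, with exact intervals of 33.5 to 69.2 and 20.4 to 54.9 that reached into those of the wt mice, 19.8 to 33.7 and 19.2 to 39.95.

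**Figure D2:**
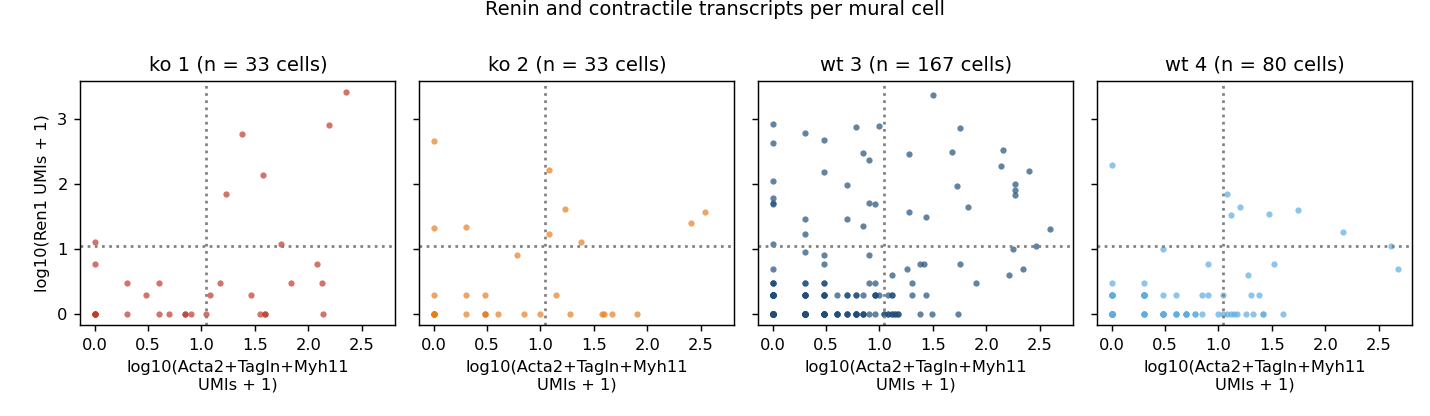
Each point is 1 mural cell, placed by log10(UMIs + 1) of Acta2, Tagln and Myh11 together (horizontal axis) and of Ren1 (vertical axis), with 1 panel for each mouse. Dotted lines mark 10 UMIs, and of the 61 cells above the horizontal line 35 also lie to the right of the vertical one.

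The first question the design puts to these cells is whether their number differed between genotypes. Mural cells made up 2.83% and 2.56% of the tagged cells in the ko mice and 6.71% and 5.17% in the wt mice. The exact binomial intervals of the ko mice, 1.95 to 3.95 and 1.77 to 3.58, lay below those of the wt mice, 5.76 to 7.76 and 4.12 to 6.39, and they cover counting error within a mouse and not the spread between mice. The mean difference was -3.24 percentage points, with 2.69% ± 0.19 (SD, n = 2) in the ko and 5.94% ± 1.09 (SD, n = 2) in the wt mice. The two-sided exact permutation test gave p = 0.333, the smallest value possible.

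The endothelial cells that mural cells support went the other way. They made up 14.98% and 9.93% of tagged cells in the ko mice and 7.15% and 5.75% in the wt mice. There were 0.189 and 0.258 mural cells per endothelial cell in the ko mice and 0.938 and 0.899 in the wt mice. The ratio was thus below 0.3 in both ko mice and near 0.9 in both wt mice (exact permutation p = 0.333, the smallest possible). Without subclusters 7 and 9 the ratios were 0.171 and 0.195 in the ko mice and 0.871 and 0.876 in the wt mice. Mural cells per collagen-rich stroma cell numbered 0.786 and 1 in the ko mice and 3.09 and 5.33 in the wt mice, with a size that followed the limits of the rule. With fewer than 10 collagen UMIs they numbered 0.367 and 0.426 in the ko and 1.07 and 0.707 in the wt mice, and with at least 3 mural UMIs 1.79 and 2.875 in the ko and 6.26 and 23 in the wt mice.

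Shares of dissociated cells depend on how tissue releases cells and on which cells keep a clear tag. A clear tag was found for 58.5% of 820 barcodes that passed the mural rule, for 40.7% of 2039 endothelial barcodes and for 53.4% of the barcodes in no class. Where the top tag had to make up 60% of tag counts in place of 80%, the ratio of mural to endothelial cells was 0.195 and 0.215 in the ko mice and 0.631 and 0.725 in the wt mice. Where it had to make up 95%, it was 0.0857 and 0.296 in the ko mice and 1.44 and 0.824 in the wt mice. That limit left only 3 and 8 mural cells in the ko mice and 23 and 14 in the wt mice. The part of tagging and dissociation in these shares was not tested.

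**Figure D3:**
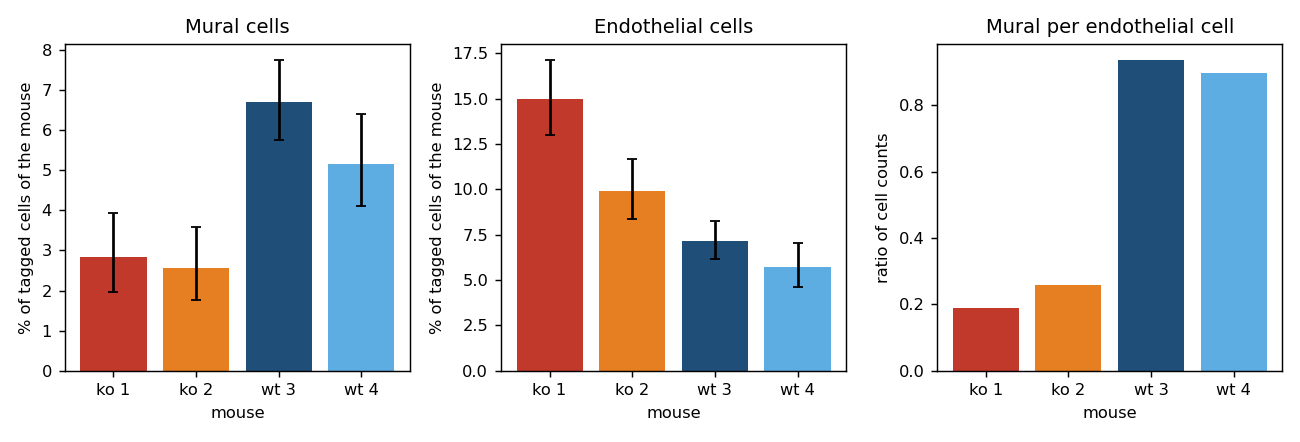
Mural cells (left) and endothelial cells (middle) as a percentage of the tagged cells of each mouse, with 95% exact binomial intervals, and mural cells per endothelial cell (right). Mural shares are 2.83% and 2.56% in the ko mice and 6.71% and 5.17% in the wt mice, while endothelial shares are higher in the ko mice.

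The second question is whether gene expression in mural cells differed between genotypes. UMIs were summed over the mural cells of each mouse, and 9377 genes outside the rule were tested with edgeR's quasi-likelihood test. At an adjusted p under 0.05 edgeR called 0 genes (0% of those tested), and 282 had an unadjusted p under 0.05. Of these, 141 were higher in the ko mice (1.5%) and 141 lower (1.5%). DESeq2 called 2 genes (0.0213%), both higher in the ko mice. In 15.5% of the tested genes both ko mice lay above both wt mice, and in 15.4% both lay below. The counts for gene groups in this set of cells are read against these shares. Other sets of cells have shares of their own. Where none is printed for such a set, its counts are descriptions and were not compared with all genes. All log2 changes that follow are ko minus wt on TMM-scaled sums, and the level of each mouse is its TMM-scaled CPM.

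The genes DESeq2 called were Sprr1a and Tfap2b, named here after their values were seen. Sprr1a, a cornified envelope gene of epithelia, stood at 46.5 and 17.5 CPM in the ko mice and at 1.07 and 1.52 CPM in the wt mice. Tfap2b, a transcription factor of the distal nephron, stood at 65.4 and 207 CPM in the ko mice and at 28.6 and 13.7 CPM in the wt mice. Their adjusted p was 0.0160 by DESeq2 and 0.997 by edgeR. Without subclusters 7 and 9 neither gene had enough UMIs to be tested.

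Epithelial and immune transcripts differed between the sums of the mice. The 12 proximal tubule markers summed to 853 and 791 CPM in the ko mice and to 477 and 221 CPM in the wt mice, and 5 of the 10 tested lay higher in both ko mice. Without Scrublet doublets 1 of 6 lay above and 3 below, and with at least 3 mural UMIs per cell 0 of 11 lay above and 2 below. With at least 10 mural UMIs 7 of 9 lay above and 0 below, and with the rule applied after thinning 8 of 9 lay above and 0 below. No share of all genes is given for the sets without Scrublet doublets, with at least 10 mural UMIs or after thinning. Their counts are descriptions. The 14 markers of other epithelia summed to 706 and 3335 CPM in the ko mice and to 1265 and 831 CPM in the wt mice, and all 10 tested overlapped. The 10 immune markers summed to 400.0 CPM in ko mouse 2 and to between 18.2 and 22.8 CPM in the other mice. None had enough UMIs to be tested, but with at least 3 mural UMIs per cell all 9 tested lay above in both ko mice, where 17.7% of all genes did, at a median log2 change of 3.97. Each of these lists had UMIs of all its genes, and their part in the gene values was not tested.

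The comparison was repeated without subclusters 7 and 9, an alternative added after seeing the data, and the remaining mural cells are called the reduced set. It gave 8428 tested genes, of which edgeR called 0 (403 at an unadjusted p under 0.05). Both ko mice lay above both wt mice for 16.9% of these genes and below for 17.3%. There 2 of 7 proximal tubule markers lay above and 1 below, and of 10 other epithelial markers 2 lay above and 0 below. Where subcluster 9 alone was left out and the cells of subcluster 7 were kept, 6 of 10 proximal tubule markers lay above and 0 below, and of 8518 genes edgeR called 0 (431 at an unadjusted p under 0.05). The shares of all genes above and below are not given for that set, so its counts are descriptions. The counts of both sets are given for each list below.

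Genes of cell division leaned one way. Of 22 proliferation genes, all tested, both ko mice lay below both wt mice for 14 and above for 0, with a median log2 change of -0.67 against 0.0068 over all genes. Cenpf, a kinetochore protein, stood at 129 and 57.7 CPM in the ko mice and at 298 and 292 CPM in the wt mice, a log2 change of -1.68 (SE 0.37). Ube2c, which helps end mitosis, stood at 255 and 89.0 CPM and at 434 and 324 CPM. Top2a, the topoisomerase of dividing cells, stood at 399 and 221 CPM and at 467 and 454 CPM, and Mki67 at 272 and 128 CPM and at 311 and 317 CPM. Their log2 changes were -0.58 and -0.66. Over the alternatives these lay between -1.16 and -0.22 for Top2a and between -1.35 and -0.22 for Mki67. None of the 22 passed the test after adjustment, Cenpf included (edgeR adjusted p = 0.997).

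Ko mouse 2 was the lowest mouse for 21 of the 22 genes, against 30.1% of all genes, and for 16 of the 22 in the reduced set, against 29.2%. There 14 of the 22 lay below in both ko mice and 1 above, at a median of -0.50. Without subcluster 9 alone, where the share of all genes is not given, 13 lay below and 1 above. Top2a stood at 416 and 394 CPM in the ko mice and at 532 and 482 CPM in the wt mice of the reduced set, so that the ko mice were close to each other. Cenpf stood there at 129 and 83.1 CPM and at 350.3 and 315 CPM, a log2 change of -1.62 (SE 0.24, edgeR adjusted p = 0.116). Its edgeR adjusted p lay between 7.38e-05, with no filter beyond 1 count, and 0.999 over the alternatives, and it was 0.0310 without ko mouse 1. With a top tag of 60% 9 of the 22 lay below, and with one of 95% 3 of the 18 that could be tested. The shares of all genes below under these tag limits are not given here. Counted by cell, with every cell thinned to 6800 UMIs, mural cells with at least 10 UMIs of the 22 genes made up 42.4% and 30.3% in the ko mice and 37.1% and 48.8% in the wt mice. The share of such cells thus overlapped between genotypes where the summed levels did not. In endothelial cells the same shares were 25.7% and 32.8% in the ko and 32.6% and 38.2% in the wt mice. The summed levels were also lower in both ko mice in collagen-rich stroma cells, at 1768 and 2219 CPM against 3023 and 2516 CPM in the wt mice. In endothelial cells they overlapped, at 1716 and 2264 CPM in the ko and 2356 and 2070 CPM in the wt mice.

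**Figure D4:**
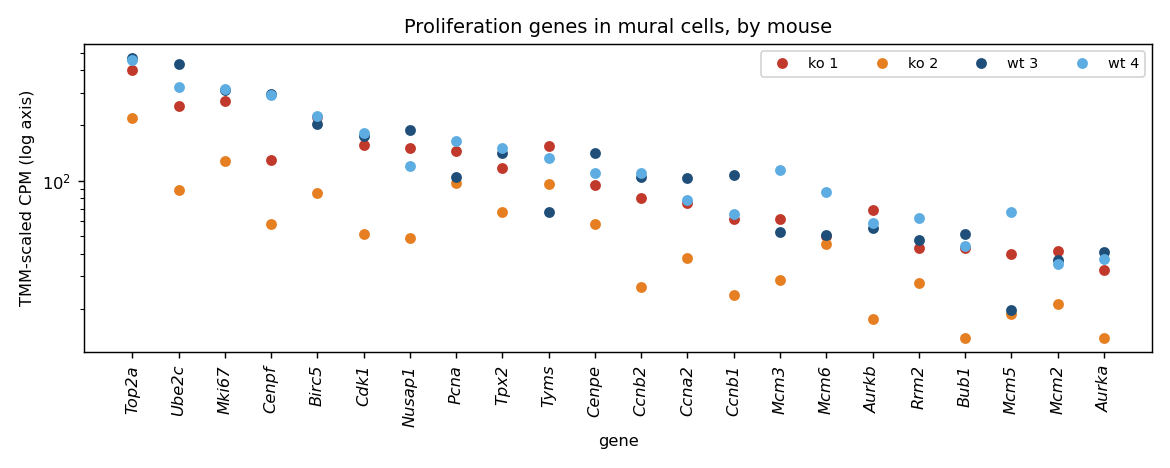
TMM-scaled CPM (log axis) of the 22 proliferation genes in the mural cells of each mouse, ordered by mean level. Ko mouse 2, of whose UMIs 58.5% were in subclusters 7 and 9, is the lowest for 21 genes, and both ko mice lie below both wt mice for 14.

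Contractile genes had no common direction in the whole set of mural cells. Of 19 genes 16 were tested, 8 with a positive and 8 with a negative log2 change, 15 overlapped between genotypes, and Lmod1 lay below in both ko mice. In the reduced set 5 lay above and 1 below, at a median log2 change of 0.25, and without subcluster 9 alone 8 lay above and 0 below. With at least 3 mural UMIs per cell 4 lay below and 0 above, and without cells with 10 or more Epcam and Cdh1 UMIs 7 lay above and 0 below. No share of all genes is given for the Epcam and Cdh1 alternative or for the set without subcluster 9 alone, so these counts are descriptions. Cald1, caldesmon, stood at 1697 and 792 CPM in the ko mice and at 1307 and 1305 CPM in the wt mice, and in the reduced set at 1893 and 1664 CPM and at 1616 and 1404 CPM. Tpm1, tropomyosin, stood at 1325 and 869.9 CPM and at 874 and 863 CPM. Acta2 stood at 1427 and 671 CPM in the ko mice and at 721 and 705 CPM in the wt mice. Acta2 in the reduced set stood at 1637 and 1006 CPM and at 913 and 759 CPM, above both wt mice in both ko mice, with a log2 change of 0.66 (SE 0.21, edgeR adjusted p = 0.960). Ko mouse 2 was the lowest mouse for 11 of the 16 genes and for 3 of the 16 in the reduced set. Of the serum response and myocardin factors 7 were tested, of which 2 (Filip1l and Mrtfa) lay below in both ko mice, and Mef2c, the highest, stood at 411 and 242 CPM and at 586 and 310 CPM. The reduced set also had 2 of the 7 below and 0 above.

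Ren1 varied more between mice of a genotype than between genotypes. It stood at 7289 and 1009 CPM in the ko mice and at 3581 and 369 CPM in the wt mice, a log2 change of 1.07 with an SE of 1.58 (edgeR adjusted p = 0.997). Ren1 in the reduced set stood at 8378 and 2359 CPM and at 4627 and 397 CPM. Without the 3 richest cells of each mouse the unscaled level was 429.8 and 184 CPM in the ko mice and 2114 and 137 CPM in the wt mice, which left wt mouse 3 as the highest. These 3 cells were taken from 33 and 33 cells in the ko mice and from 167 and 80 in the wt mice, so the cut was unequal. Akr1b7 kept a narrower range, at 469.9 and 233 CPM in the ko mice and 166 and 164 CPM in the wt mice, with a log2 change of 1.09 (SE 0.35, edgeR adjusted p = 0.997). Its levels in the reduced set were 540.4 and 532 CPM and, in the wt mice, 214 and 176 CPM, a log2 change of 1.46 (SE 0.18, edgeR adjusted p = 0.0999). Without ko mouse 1 the change in the whole set was 0.44 (SE 0.30) and without ko mouse 2 it was 1.497 (SE 0.28). Over the alternatives the edgeR adjusted p of Akr1b7 lay between 0.0886 and 0.999. Over the 12 tested genes of the renin lineage 2 lay above (Akr1b7 and Cacna1h) and 2 below (Agtr1a and Adora1) in both ko mice, and in the reduced set 1 of 11 lay above and 2 below.

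The direction of pericyte genes depended on which cells were counted. Of 18 genes 13 were tested, with 1 above and 3 below in both ko mice and a median log2 change of -0.21. The reduced set had 3 above and 2 below, with a median of 0.072. With at least 3 mural UMIs per cell 8 of the 13 lay below and 2 above, at a median of -0.73, where 17.8% of all genes lay below. With a top tag of 60%, for which no share of all genes is given, 5 lay below and 0 above. Kcnj8 stood at 139 and 75.2 CPM in the ko mice and at 188 and 187 CPM in the wt mice, a log2 change of -0.82 (SE 0.32, edgeR adjusted p = 0.997). Kcnj8 in the reduced set stood at 156 and 163 CPM and at 229 and 200.1 CPM, a change of -0.43. Without ko mouse 1 the change in the whole set was -1.38 and without ko mouse 2 it was -0.44. Gucy1a1 stood at 406 and 175 CPM in the ko mice and at 388 and 350.4 CPM in the wt mice, and in the reduced set at 453 and 388 CPM and at 486 and 378 CPM, where the genotypes overlapped with a log2 change of -0.037. In all mural cells Rgs5, a rule gene, stood at 755 and 513 CPM and at 740 and 525 CPM. Of the mesangial markers 12 were tested and 5 lay below and 1 above in both ko mice, against 4 below and 1 above in the reduced set. Ptn, pleiotrophin, stood at 799 and 470.0 CPM in the ko mice and at 831 and 1464 CPM in the wt mice, and in the reduced set at 893 and 1046 CPM and at 1010.0 and 1565 CPM. Ko mouse 2 was lowest for 10 of these 12 genes, and for 2 of the 12 in the reduced set.

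Receptors, ligands and their targets were counted in 6 lists. Of 13 tested Notch pathway genes 2 lay above and 2 below in both ko mice. Heyl, a direct Notch target of vascular smooth muscle, stood at 105 and 97.8 CPM in the ko mice and at 63.2 and 71.4 CPM in the wt mice. Heyl in the reduced set stood at 119 and 172 CPM and at 72.9 and 69.7 CPM, a log2 change of 1.005 (SE 0.25, edgeR adjusted p = 0.960). Hes1, another Notch target, stood in all mural cells at 145 and 150.4 CPM and at 177 and 144 CPM. Of 12 tested PDGF pathway genes 3 lay above and 3 below. Pdgfa, a ligand of PDGFRA, stood at 131 and 159 CPM in the ko mice and at 82.5 and 82.1 CPM in the wt mice, a log2 change of 0.82 (SE 0.25, edgeR adjusted p = 0.997). Of 21 TGF-beta and BMP pathway genes 2 lay above and 2 below, and the BMP target Id3 stood between 1074 and 1272 CPM in all 4 mice. Of 8 tested cGMP and nitric oxide genes 2 lay below, Gucy1b1 and Prkg1, and of 7 tested angiopoietin, VEGF and S1P genes Angpt1 lay above. Of 10 tested channel and vasoconstrictor receptor genes 1 lay above and 3 below, among them Kcnj8 and Agtr1a, the angiotensin receptor. In the reduced set 2 of 13 Notch genes lay above and 2 below, and of 12 PDGF genes 5 lay above and 3 below. There 2 of 20 TGF-beta and BMP genes lay above and 2 below, and of 8 cGMP and nitric oxide genes 2 lay above and 1 below. Of 7 angiopoietin, VEGF and S1P genes 2 lay above and 1 below there, and of 9 channel and receptor genes 1 lay above and 3 below.

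Ligand and receptor pairs were read in the endothelial and mural cells. Pdgfb, the ligand of PDGFRB, stood at 156 and 168 CPM in endothelial cells of the ko mice and at 118 and 168 CPM in those of the wt mice, and between 12.5 and 29.3 CPM in mural cells. Dll4, a Notch ligand of arterial endothelium, stood between 59.6 and 90.8 CPM in endothelial cells and at or below 3.76 CPM in mural cells. Jag1 stood between 42.4 and 58.3 CPM in endothelial and between 49.9 and 66.4 CPM in mural cells, and at 73.7 CPM in free RNA. Both classes thus overlapped for Jag1, and free RNA lay above them. Edn1, endothelin, stood between 46.0 and 106 CPM in endothelial cells, and its receptor Ednra between 46.4 and 124 CPM in mural cells. Nos3, the endothelial nitric oxide synthase, stood between 33.0 and 57.5 CPM in endothelial cells. Angpt1, which mural cells send to the endothelial receptor TEK, stood between 17.5 and 20.1 CPM in mural cells, and Tek between 96.0 and 157 CPM in endothelial cells. None of those tested passed the genotype test in either class by edgeR, which called 0 of 11389 genes in endothelial cells (640 at an unadjusted p under 0.05).

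Matrix and stroma genes were counted in 3 lists. Of 20 tested basement membrane genes 3 lay above and 1 below in both ko mice, with Col4a1, the main collagen of the vascular basement membrane, at 1539 and 782 CPM in the ko mice and at 1168 and 1091 CPM in the wt mice. The reduced set had 6 of the 20 above and 0 below. Of 15 tested interstitial matrix genes 6 lay below and 0 above, a count that was 2 below and 1 above in the reduced set. Mgp, an inhibitor of vessel calcification, stood at 1041 and 575 CPM and at 924 and 1226 CPM, and in the reduced set at 1198 and 1279.7 CPM and at 1138 and 1323 CPM. Of 18 tested stroma transcription factors 6 lay below and 2 above, and in the reduced set 4 below and 3 above. Meis2, a homeodomain protein of the stroma, stood at 308 and 167 CPM in the ko mice and at 437 and 469.7 CPM in the wt mice, and in the reduced set at 331 and 357 CPM and at 533 and 505 CPM, a log2 change of -0.60 (SE 0.17, edgeR adjusted p = 0.960).

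Trim28 silences chromatin with the heterochromatin proteins and histone deacetylases. Of the 18 genes of this group, all tested, 5 lay below in both ko mice, Trim28 among them by its TMM-scaled level, and 1 above. The reduced set had 4 below and 1 above, and Trim28 overlapped. Chd4, a remodeller of the NuRD complex, stood at 330.4 and 366 CPM in the ko mice and at 326 and 395 CPM in the wt mice. Of 19 tested imprinted genes 4 lay below and 1 above, while in the reduced set 0 lay below and 4 above. H19, an imprinted non-coding RNA, stood at 723 and 150.4 CPM in the ko mice and at 477 and 222 CPM in the wt mice. Of 17 tested immediate early genes 2 lay above and 2 below, of 6 tested nephron progenitor markers 3 lay below, and of 6 tested endothelial markers 1 lay below. The 4 tested erythroid genes overlapped, with the list's 6 genes at 12747 and 4041 CPM in the ko mice and 3066 and 7165 CPM in the wt mice. In the reduced set 3 of 15 immediate early genes lay above and 4 below, 2 of 4 nephron progenitor markers lay below, and of 6 endothelial markers 1 lay above and 1 below. Of 5 erythroid genes tested there 4 lay above.

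Wt mouse 3 stood apart in metabolic and interferon genes. Hypoxia response genes summed to 2985 CPM in its mural cells and to 1373, 1339 and 1212 CPM in ko mice 1 and 2 and wt mouse 4. It was the highest mouse for 15 of the 17 genes tested, against 22.5% of all genes, and for 16 of the 17 in the reduced set. Bnip3, a target of hypoxia-inducible factor, stood at 297 CPM in it and at 41.3, 70.2 and 37.2 CPM in the others, and Vegfa, the vessel growth factor, at 183 CPM against 48.2, 67.7 and 47.9 CPM. Glycolysis genes summed to 8127 CPM against 3925, 5370.3 and 4127 CPM, with 14 of 16 highest in wt mouse 3.

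The same mouse was lowest for 8 of 9 tested interferon and innate sensing genes, against 21.4% of all genes, and for 8 of 10 in the reduced set. Isg15, an interferon-induced ubiquitin-like protein, stood at 8.21 CPM in it and at 80.9, 46.4 and 69.2 CPM in the others. The same mouse was the extreme one in the other classes. Hypoxia response genes summed to 3095 CPM in the collagen-rich stroma cells of wt mouse 3 and to between 843 and 996 CPM in those of the other mice, and to 2539 CPM in its endothelial cells against 958 to 1059 CPM. Interferon genes summed to 2299 CPM in its endothelial cells and to between 3869.7 and 4941 CPM in the others. It is 1 of 2 wt mice in every genotype comparison. In that comparison 3 of 17 hypoxia genes and 4 of 16 glycolysis genes lay below in both ko mice, 2 of 9 interferon genes lay above. In the reduced set 2 of 17 hypoxia genes lay below and 1 above, 8 of 15 glycolysis genes lay below, and 4 of 10 interferon genes lay above. Bnip3 changed by -1.59 with wt mouse 3 and by 0.58 without it.

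**Figure D5:**
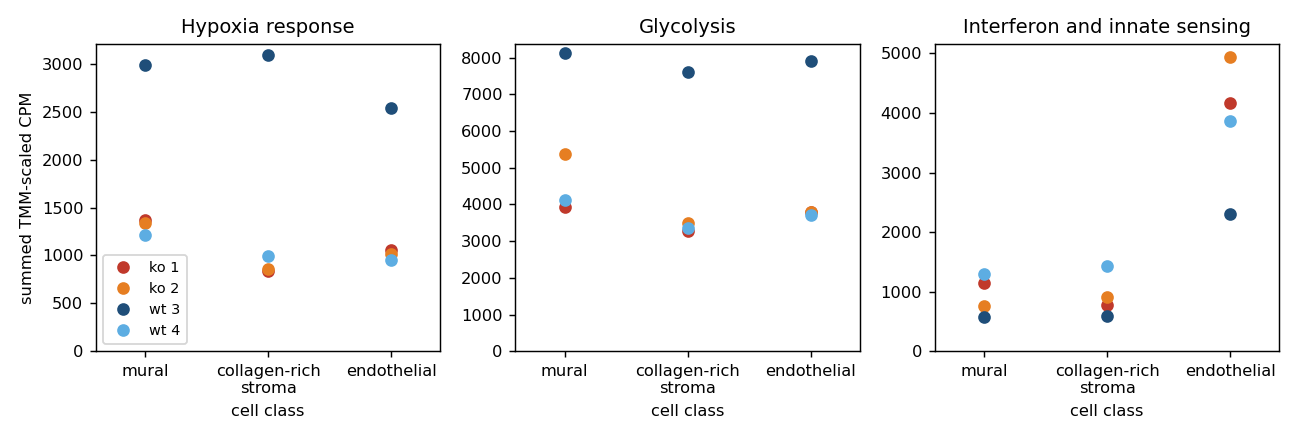
Summed TMM-scaled CPM of the hypoxia response, glycolysis and interferon lists in the mural, collagen-rich stroma and endothelial cells of each mouse. Wt mouse 3 is highest for the first 2 lists and lowest for the third in all 3 classes.

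The last question is whether the genotype difference in mural cells was unlike that in neighbouring classes. A fit over mural and collagen-rich stroma cells with the mouse as a block tested 8546 genes for a difference of the genotype change. EdgeR called 0 of them (0%), with 291 at an unadjusted p under 0.05, and DESeq2 called 0. The same fit over mural and endothelial cells tested 11654 genes, of which edgeR called 0 (0%), with 391 at an unadjusted p under 0.05, and DESeq2 called 0. The genotype change of Trim28 differed by -0.09 (SE 0.27) between mural and endothelial cells and by -0.19 (SE 0.32) between mural and stroma cells. The stroma class held only 15 cells in wt mouse 4, and edgeR's count there was 50 with at least 3 mural UMIs per cell and 15 without subclusters 7 and 9.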

How the data were processed

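Per the labels, kidney cells were dissociated with a cold-active protease, tagged by mouse and run on the 10x Chromium 3′ v3.1 assay, with a stated recovery of about 24000 cells. The deposited pooled matrix held UMI counts of 32285 genes in 3921239 barcodes, with no normalization by the authors. The submitters' processing notes name Cell Ranger 6.0.0, GRCm38 and mm10 without a role, the matrix header names Cell Ranger 4, and no source used here ties a build to these counts. The matrix is unfiltered, so barcodes were kept with at least 6890 UMIs (the order-of-magnitude rule on the 24000 largest barcodes), 200 genes and at most 10% mitochondrial UMIs (19273 barcodes). A mouse was assigned where its tag had at least 50 counts and 80% of the counts of the 8 sample tags; 3603 barcodes had tags of no listed mouse and 9175 no clear tag. Barcodes of the pool are unique, so the mice share none. No counts were corrected for free RNA, and doublets were marked by Scrublet and kept. Samples of whole kidney RNA were not analysed here.

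UMIs were summed per mouse and tested with edgeR 4.0.16 (filterByExpr, TMM, robust quasi-likelihood fit, Benjamini-Hochberg adjustment, threshold 0.05) in R 4.3.3, with DESeq2 1.42.0 as an alternative. The rule genes were left out of these tests. Subclusters came from scanpy 1.11.5 (2000 variable genes, 15 components, Leiden resolution 0.6), their leading genes from the ratio of CPM with 50 added, and leading mural genes from the ratio with 10 added among genes of at least 50 CPM. Scripts were tested on simulated counts. With only 2 mice a genotype, the design allows a smallest exact p of 0.333. The edgeR p-values rest on a spread estimated from all sums in a fit and moderated over the genes tested. They do not measure the spread of 1 gene between the 2 mice of a genotype alone. The members and gene lists were chosen with earlier results of these data known. Of each list the genes named were those called and up to 4 of the highest level, beside the rule genes, the leading genes and ligand and receptor pairs. Members named where a count of 5 or fewer is spelled out were chosen after their values were seen. Some leading genes of subclusters are not reported here.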

Additional observations from a re-analysis of the deposited data

Results flagged for a closer look

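The share of mural cells was lower in both ko mice (a difference of -3.24 percentage points) while the share of endothelial cells was higher in both (6.01 percentage points, 3.48 without ko mouse 1, 3.80 with a top tag of 60% and 26.7 with one of 95%), so the same contrast of genotypes ran in opposite directions in these classes. The share of collagen-rich stroma cells was also higher in both ko mice (1.51 percentage points). The ratio of mural to endothelial cells had a two-sided exact permutation p of 0.333, the smallest that 2 against 2 mice can give.

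In data outside the comparisons, 167 barcodes passed the mural rule and carried a tag that no listed mouse has, beside 340 with no clear tag.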

How the results depend on the processing

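The share of mural cells and the ratio of mural to endothelial cells kept their direction under all 16 alternatives, the former from -5.67 to -1.62 percentage points and the latter from -0.94 to -0.38. Other limits for mural or collagen UMIs, the lower UMI minimum and the exclusion of Scrublet doublets were among them, and alternatives without cells over 40000 UMIs, without cells with 10 or more Epcam and Cdh1 UMIs, without subclusters 7 and 9, without subcluster 9 alone and with a top tag of 60% were chosen after seeing the data. A top tag of 95% left only 3 and 8 mural cells in the ko mice and 23 and 14 in the wt mice, so values under it rest on few cells. Trim28 changed by 0.19 with a top tag of 95% and by -0.48 (SE 0.19, edgeR adjusted p = 0.650) with at least 3 mural UMIs. It changed by -0.0053 after thinning, by -0.31 without wt mouse 3 and by -0.027 without wt mouse 4. The cause of each change below was not tested. Genes called between genotypes numbered 2 with DESeq2 and 47 with no filter beyond 1 count, and 0 to 23 with a mouse left out (23 without ko mouse 1, and 1 without ko mouse 2). Against collagen-rich stroma cells, genes whose change differed numbered 50 with at least 3 and 15 with at least 10 mural UMIs, 28 after thinning, 2 with a minimum of 2500 UMIs, 2 without cells over 40000 UMIs, 5 without Epcam and Cdh1 cells, 15 without subclusters 7 and 9, 11 without subcluster 9 alone, 6 with a top tag of 60%, 23 with no filter, and 7 to 100 with a mouse left out (100 without ko mouse 1, 39 without ko mouse 2, 17 without wt mouse 4). Against endothelial cells they numbered 14 after thinning, 4 without cells over 40000 UMIs, 31 without Epcam and Cdh1 cells, 2 with a top tag of 60%, 26 with no filter, and 0 to 303 with a mouse left out (303 without ko mouse 1, 51 without ko mouse 2). A group left with 1 mouse is assumed to vary like the other. Subclusters whose shares did not overlap numbered 5 to 7 of 9 with a mouse left out. Ren1 changed by -0.040 with fewer than 10 collagen UMIs, -0.023 after thinning and -2.13 with a top tag of 95%, and from -1.02 to 3.49 with a mouse left out (negative without ko mouse 1). Gucy1a1 changed by 0.10 with at least 10 mural UMIs, 0.26 with a top tag of 95%, and from -1.13 to 0.12 with a mouse left out (positive without ko mouse 2). Acta2 changed by -0.036 with at least 3 mural UMIs and -0.11 with a top tag of 95%, and from -0.15 to 0.99 with a mouse left out (negative without ko mouse 1). Ptn changed by 0.27 with a top tag of 95%, Bnip3 from -2.41 to 0.58 with a mouse left out (positive without wt mouse 3), and Tfap2b by -0.17 after thinning and -0.084 with a top tag of 95%. With no filter edgeR also called Cenpf, Ube2c, Sprr1a, Tfap2b and Meg3, and without ko mouse 1 it called Cenpf, Ube2c and Tfap2b. No paired analysis was possible because the mice of the 2 genotypes carry no shared numbers and the whole-kidney samples that do were not analysed here.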

Other observations

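Meg3, an imprinted non-coding RNA named here after its values were seen, stood at 207 and 312 CPM in the mural cells of the ko mice and at 123 and 76.0 CPM in those of the wt mice, a log2 change of 1.38 (SE 0.33). In endothelial cells it stood at 76.9 and 56.1 CPM in the ko mice and at 110 and 122 CPM in the wt mice, a log2 change of -0.80 (SE 0.20). The difference of these changes was 2.16 (SE 0.41), with an edgeR adjusted p of 1, and without subclusters 7 and 9 the mural change was 0.81.

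At a clustering resolution of 1.0 a subcluster of 26 mural cells came from wt mouse 3 alone. It was led by Vip at 658 CPM against 44.2 CPM in the other mural cells, Hopx at 1078 against 187 CPM, Slc12a2, Errfi1 and Postn, and its leading genes included Avpr1a, the vasopressin receptor of vascular smooth muscle, at 134 against 6.86 CPM.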
